A study of Homo sapiens with 6 samples.

Results

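Protein kinase A (PKA) is the kinase that cAMP switches on, and NE reaches it through beta-adrenergic receptors, the Gs protein and adenylyl cyclase. To ask whether NE changed the transcripts of the kinase itself, 10 genes were taken from the deposited table by name. They were the catalytic subunits PRKACA and PRKACB, the regulatory subunits PRKAR1A, PRKAR1B, PRKAR2A and PRKAR2B, the inhibitors PKIA, PKIB and PKIG, and the anchoring protein AKAP12. All 10 were among the 26025 genes of the table, each in 1 row, and all 10 passed the minimum mean of 10 normalized counts. NCI-H1299, an established non-small cell lung cancer cell line, was starved and then kept in low-serum medium for 48 h with 10 µM NE (3 libraries, NE) or with vehicle (3 libraries, Ctrl). The sample titles name the vehicle as DMSO and the treatment protocol as PBS, and no other agent or allele is named for either group. It is 1 cell line at 1 dose and 1 time, and nothing in the labels says that the replicates were separate cultures, so that p-values measure the spread between these libraries.

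In the resting holoenzyme a dimer of regulatory subunits holds catalytic subunits inactive, and cAMP bound to the regulatory subunits sets them free. Type I regulatory subunits are mostly cytosolic, whereas type II subunits are mostly held at membranes and organelles by A-kinase anchoring proteins. PKI proteins are short pseudosubstrates that bind free catalytic subunits, block them and carry them out of the nucleus. In the nucleus free catalytic subunits phosphorylate CREB, which binds the cAMP response element (CRE).

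Reads on genes ranged from 16852751 to 17979206 per library. Values are normalized read counts, which are gene reads divided by 1 size factor per library. Ctrl replicate 3 stood apart from the other Ctrl libraries. It had 7305 genes at 0 reads, against 4829 and 4833, and its reads differed from theirs with a chi-square per degree of freedom of 56.4 and 51.5, against 2.98 between Ctrl replicates 1 and 2. Among the NE libraries replicate 1 was the farthest from the others, at 14.6 and 27.1 against 5.77 between replicates 2 and 3. Leaving it out changed no call of the 10 genes, with AKAP12 at 0.64 and PKIA at 1.04 on the log2 scale, and took PRKAR2A, which did not pass, to -0.16. Log2 differences between libraries also followed the GC content of the exons across 12581 protein-coding genes. The Spearman correlation was between -0.732 and -0.696 for NE libraries minus Ctrl replicates 1 and 2, between -0.492 and -0.434 for NE libraries minus Ctrl replicate 3, and -0.587 and -0.543 for Ctrl replicate 3 minus the other Ctrl libraries. For this reason the tests of the 10 genes are given with all 6 libraries, without Ctrl replicate 3, and after a GC correction that removes each library's trend on GC content. The correction also removes any change made by NE that follows GC content, so that the 2 cannot be told apart. Of the marker genes of the line, KRT8, KRT18 and VIM were abundant in all libraries, with 5232 normalized counts or more, while KRT19 was at 9.33 or below. KRT8 averaged 12452 in Ctrl and 5907 in NE, KRT18 22472 and 7248, and VIM 66719 and 51194, and the part of these falls in the results below was not tested. Summed markers of immune cells did not exceed 4.84, of fibroblasts 35.6 and of endothelial cells 52.9 normalized counts in any library.

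Genes were tested with limma on log2(normalized count + 1) over 15013 genes, with Benjamini-Hochberg adjustment over all of them. By this test 5 of the 10 genes rose with NE at an adjusted p under 0.05 and 2 fell, against 24.6% of all tested genes higher and 25.5% lower. PRKACB, PRKAR1A, PRKAR2B, PKIA and AKAP12 rose, and PRKAR1B and PKIG fell. PRKACA, PRKAR2A and PKIB did not pass the test. When a change of at least 1 on the log2 scale was also asked for, PKIA was upregulated and no member was downregulated, against 7.47% and 6.55% of tested genes. The libraries of the 2 groups did not overlap for the 7 genes that passed. NE was above Ctrl for 5 and below it for 2 of them, where 29.7% and 28.9% of all tested genes had such an order. The family's share was above that of all genes for rises and below it for falls, which describes these 10 genes and was not tested. The median log2 fold change of the 10 genes was 0.41, beside 0.01 over all tested genes. In bulk RNA fewer cells of a kind and less RNA per cell cannot be told apart.

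**Figure D1:**
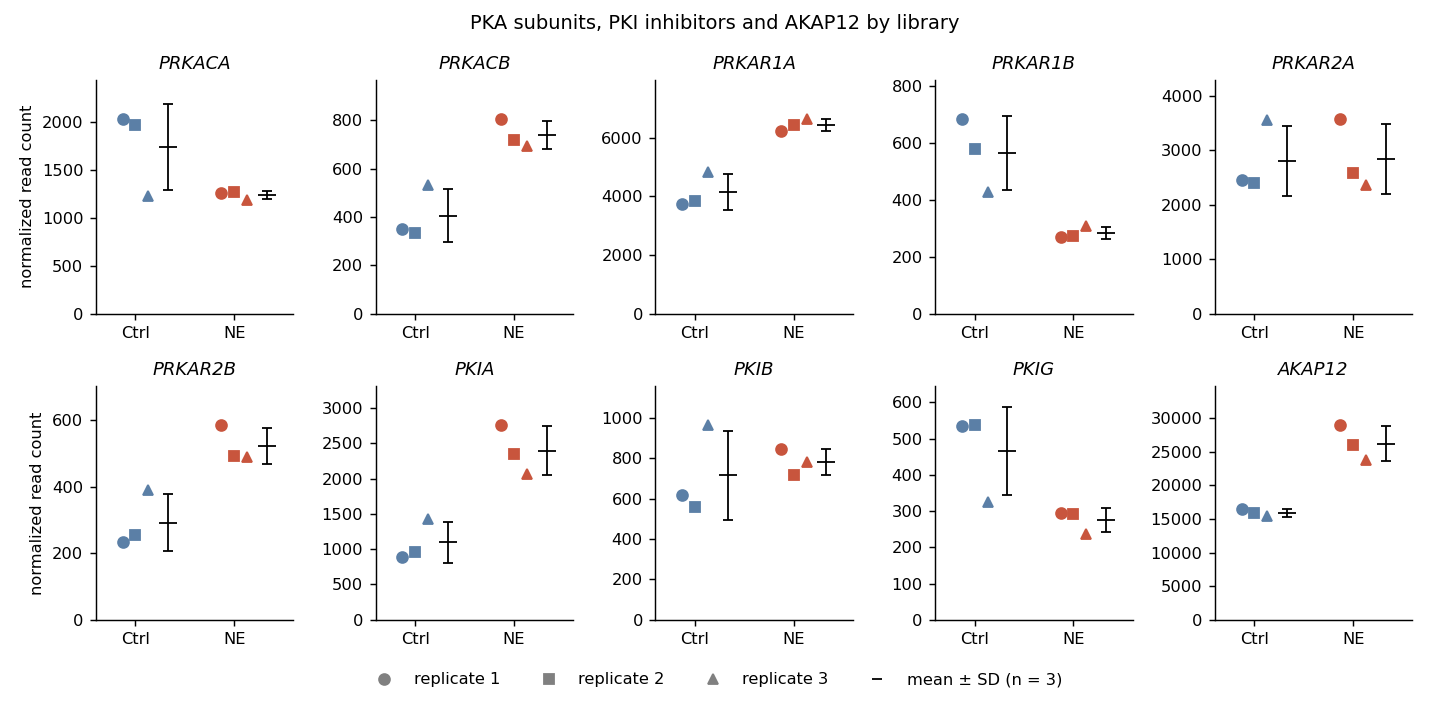
Normalized read counts (y axis, from 0) of the 10 genes in the 3 Ctrl (blue) and 3 NE (red) libraries, 1 panel per gene; symbols mark the replicate number and black bars the mean ± SD. Ctrl replicate 3 (blue triangle) lies apart from the other Ctrl libraries in most panels, and in AKAP12 all 3 Ctrl libraries sit together, between 15397 and 16465, below all NE libraries.

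AKAP12, also called gravin, is a large scaffold that holds PKA and PKC together at the plasma membrane. Its gene (ENSG00000131016) spans 151239967 to 151358559 of chromosome 6 (hg38, plus strand). Ctrl replicates 1, 2 and 3 had 16465, 15857 and 15397 normalized counts, and NE replicates 1, 2 and 3 had 29023, 25979.7 and 23726. All NE libraries were high, and the Ctrl libraries, replicate 3 included, were close to each other. Ctrl averaged 15906 ± 536 (SD, n = 3) and NE 26243 ± 2658 (SD, n = 3), which was a rise of 0.72 on the log2 scale (SE 0.10, limma adjusted p = 0.000679). It was 0.69 without Ctrl replicate 3 (adjusted p = 3.39e-05 by limma) and 0.64 after the GC correction (adjusted p = 0.00128 by limma). Of the 10 genes, AKAP12 moved least between these 3 fits. Its exons hold 46.8% GC, and the 1756 tested genes between 45% and 48.0% GC had a median log2 fold change of 0.07, with the 75th percentile at 0.44. By reads per length AKAP12 was also the most abundant member, and it moved from rank 355 to rank 116 among 14955 genes with an exon length.

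RefSeq lists 3 transcription starts for AKAP12 in GRCh38.p14. In windows from 250 bases before to 50 after each start, neither the full CRE TGACGTCA nor its first 5 letters, TGACG, occurred on either strand. The most upstream window is shown, 5′ to 3′ on the strand of the gene, as an example of a window without an exact match. It is all in lower case as there is no exact match to mark. Near matches were not searched for, and whether CREB acts on AKAP12 was not tested.
AKAP12 chr6:151239717-151240016 (+): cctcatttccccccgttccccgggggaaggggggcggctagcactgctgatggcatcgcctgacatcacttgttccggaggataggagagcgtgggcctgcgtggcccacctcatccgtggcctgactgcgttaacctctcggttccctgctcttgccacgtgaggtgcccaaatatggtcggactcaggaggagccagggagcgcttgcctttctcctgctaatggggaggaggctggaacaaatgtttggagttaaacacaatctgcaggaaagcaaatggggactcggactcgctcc

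The catalytic subunits went different ways. PRKACA (ENSG00000072062, chromosome 19 from 14091688 to 14118084, minus strand) encodes the main catalytic subunit of most tissues. It had 2036, 1971 and 1227 normalized counts in Ctrl replicates 1, 2 and 3 and 1259.9, 1266 and 1189 in the NE libraries. The NE libraries were alike, and Ctrl replicate 3 fell within their range while the other Ctrl libraries were high. The log2 fold change of -0.46 (standard error 0.18) did not pass limma over all genes (adjusted p = 0.0616), with a 95% interval from -0.87 to -0.05. It passed with edgeR (adjusted p = 0.039) and DESeq2 (adjusted p = 0.0234) on the recovered reads. Without Ctrl replicate 3 it was -0.69 (adjusted p = 9.15e-06 by limma), and after the GC correction -0.06 (adjusted p = 0.741 by limma).

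PRKACB (ENSG00000142875, chromosome 1 from 84078062 to 84238498, plus strand) encodes the other widely expressed catalytic subunit, made from several first exons. It had 351, 333 and 533 normalized counts in Ctrl and 806, 719 and 694 in NE replicates 1, 2 and 3. The groups did not overlap, and Ctrl replicate 3 was the highest of its group. PRKACB rose by 0.90 on the log2 scale (SE 0.18, limma adjusted p = 0.0034), 1.11 without Ctrl replicate 3 (adjusted p = 1.84e-06 by limma) and 0.27 after the GC correction (adjusted p = 0.125 by limma). The exons of PRKACA hold 56.4% GC and those of PRKACB 35.8%.

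Both genes carry the CRE core, TGACG, in their most upstream RefSeq window, which is why these 2 windows are shown together. On either strand it occurs in 24.6% of all 35116 windows and in 28.4% of 27305 genes with a window. Positions give the first letter of a match with the start as +1. Capitals mark the core, here as its reverse complement CGTCA, at -49 and -4 from the start in PRKACA and at -130 in PRKACB.
PRKACA chr19:14117713-14118012 (-): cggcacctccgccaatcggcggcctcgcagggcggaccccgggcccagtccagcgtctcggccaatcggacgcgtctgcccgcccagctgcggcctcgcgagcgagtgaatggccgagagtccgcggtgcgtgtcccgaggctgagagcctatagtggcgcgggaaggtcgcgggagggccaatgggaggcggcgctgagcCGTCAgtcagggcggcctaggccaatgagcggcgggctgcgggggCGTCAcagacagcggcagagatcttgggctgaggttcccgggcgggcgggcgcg
PRKACB chr1:84077829-84078128 (+): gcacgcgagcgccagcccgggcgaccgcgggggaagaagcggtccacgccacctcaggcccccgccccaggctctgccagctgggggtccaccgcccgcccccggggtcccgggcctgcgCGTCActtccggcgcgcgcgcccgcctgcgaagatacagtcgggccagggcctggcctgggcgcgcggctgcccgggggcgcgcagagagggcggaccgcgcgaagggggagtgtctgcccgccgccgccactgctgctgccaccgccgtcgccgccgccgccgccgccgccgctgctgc

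Within a library, the share of PRKACA in the 2 catalytic transcripts was compared by FPKM, recomputed from the reads over the merged exons. The share was 84.4%, 84.7% and 68.2% in Ctrl replicates 1, 2 and 3, and 59.3%, 62.2% and 61.5% in the NE libraries. It was lower in all NE libraries, and Ctrl replicate 3 lay nearer to them than to the other Ctrl libraries. The means were 79.1 ± 9.42% (SD, n = 3) and 61.0 ± 1.49% (SD, n = 3). After the GC correction the groups overlapped, at 61.9 to 74.6% in Ctrl and 64.8 to 65.7% in NE. The summed FPKM of both subunits was 18.1, 17.4 and 13.9 in Ctrl and 16.9, 17.0 and 16.8 in NE-treated cells, so that the groups overlapped. FPKM scales by the total reads, by which the median of all tested genes was at 0.14 on the log2 scale, so that it is used here for levels within a library.

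Among the regulatory subunits, PRKAR1A (ENSG00000108946, chromosome 17 from 68511780 to 68551319, plus strand) encodes the type I alpha subunit, whose loss frees catalytic subunits. It had 3735, 3858 and 4851 normalized counts in Ctrl and 6237, 6434 and 6653 in NE replicates 1, 2 and 3. The groups were well apart, with Ctrl replicate 3 the highest of the Ctrl libraries. PRKAR1A rose by 0.64 on the log2 scale (SE 0.12, limma adjusted p = 0.00199) and by 0.76 without Ctrl replicate 3 (adjusted p = 2.18e-06 by limma). After the GC correction it was 0.09 (adjusted p = 0.504 by limma), with a 95% interval from -0.12 to 0.29. Its exons hold 38.1% GC.

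Among the 9 members whose RefSeq windows were searched, PRKAR1A was the 1 that held the full CRE. TGACGTCA is its own reverse complement and was found in 1.85% of all windows and in 2.25% of genes. In PRKAR1A it lies in 2 overlapping windows, at +3 from the start at 68512379 and at -49 from the start at 68512430. The first of them is shown as the match to the CREB motif among these members, with the motif in capitals.
PRKAR1A chr17:68512129-68512428 (+): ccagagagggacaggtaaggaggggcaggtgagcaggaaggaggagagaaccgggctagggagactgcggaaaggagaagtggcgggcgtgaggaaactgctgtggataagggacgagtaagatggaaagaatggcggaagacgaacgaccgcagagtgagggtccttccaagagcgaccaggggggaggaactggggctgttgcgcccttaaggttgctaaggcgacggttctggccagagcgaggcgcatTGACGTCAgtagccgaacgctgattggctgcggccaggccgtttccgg
The core occurred in 6 of the 9 genes, PRKACA, PRKACB, PRKAR1A, PRKAR1B, PRKAR2A and PKIB, against 28.4% of all genes with a window. It occurred in none of the windows of AKAP12, PKIG and PRKAR2B. The 9 genes had 28 windows, and the 27305 genes had 35116. The members thus had more windows each, so that these shares are not alike. These letters were thus found in genes that rose, fell and did not pass the test. A match is not evidence of binding, and no window was listed for PKIA.

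PRKAR1B (ENSG00000188191, chromosome 7 from 549197 to 727650, minus strand) encodes the type I beta subunit, known best from the nervous system. Ctrl replicates 1, 2 and 3 had 686, 579 and 427 normalized counts, and the NE libraries 269.8, 274 and 309. All NE libraries were low, and Ctrl replicate 3 was the lowest of the Ctrl libraries. Its difference of NE minus Ctrl was -0.96 on the log2 scale (SE 0.18, limma adjusted p = 0.00215), -1.15 without Ctrl replicate 3 (adjusted p = 4.16e-06 by limma) and -0.44 after the GC correction (adjusted p = 0.032 by limma). Its exons had the highest GC content of the family, 62.1%. Exons of DNAAF5 on the opposite strand overlap 385 bases, or 7.72%, of its exons, and DNAAF5 averaged 2925 in Ctrl and 1887 in NE. The counting is not stated to use strand, so that reads in the shared bases cannot be assigned.

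PRKAR2A (ENSG00000114302, chromosome 3 from 48744597 to 48847874, minus strand) encodes the type II alpha subunit, which anchoring proteins bind. It had 2455, 2401 and 3547 normalized counts in Ctrl and 3576, 2579 and 2358 in NE replicates 1, 2 and 3. In each group 1 library was high, and the groups overlapped. The log2 fold change of 0.02 had a 95% interval from -0.41 to 0.45 (adjusted p = 0.943 by limma). A rise or a fall within this interval is thus not excluded by these data. The log2 fold change was 0.20 without Ctrl replicate 3 (adjusted p = 0.215 by limma) and -0.21 after the GC correction (adjusted p = 0.39 by limma).

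PRKAR2B (ENSG00000005249, chromosome 7 from 107044705 to 107161811, plus strand) encodes the type II beta subunit, abundant in brain and fat. It had 232, 253 and 389 normalized counts in Ctrl and 585, 493 and 489 in the NE libraries. The groups did not overlap, and Ctrl replicate 3 lay between the other Ctrl libraries and NE. The rise was 0.87 on the log2 scale (SE 0.20, limma adjusted p = 0.00561), 1.10 without Ctrl replicate 3 (adjusted p = 5.89e-06 by limma) and 0.32 after the GC correction (adjusted p = 0.126 by limma). Its exons hold 38.4% GC.

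By FPKM the type I subunits made up 59.1%, 58.8% and 51.8% of the 4 regulatory transcripts in Ctrl and 54.6%, 62.8% and 65.6% in NE replicates 1, 2 and 3, so that the groups overlapped. The ratio of catalytic to regulatory transcripts was 0.448, 0.442 and 0.270 in Ctrl and 0.288, 0.308 and 0.293 in NE. Ctrl replicate 3 had the lowest ratio of all, so that the groups overlapped here too. The NE libraries lay below the other 2 Ctrl libraries. After the GC correction the means were 0.303 in Ctrl and 0.318 in NE.

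**Figure D2:**
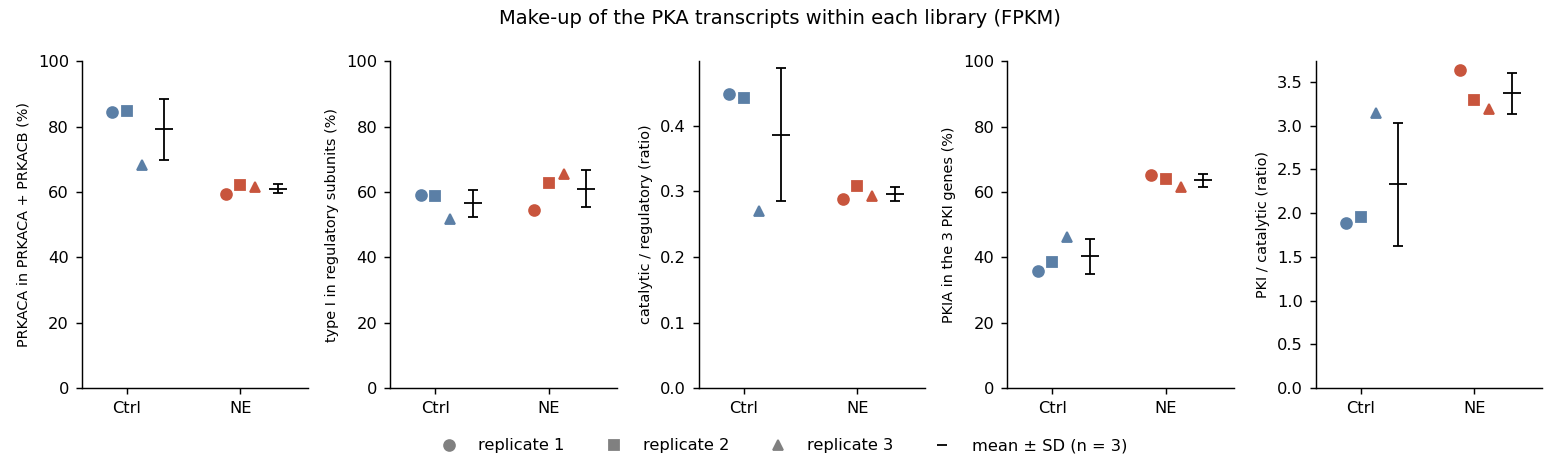
Make-up of the PKA transcripts in each library from FPKM over merged exons: shares in percent or ratios (y axes, from 0) for Ctrl (blue) and NE (red), with black bars for the mean ± SD. PKIA in the PKI genes and PRKACA in the catalytic subunits separate the groups, the former at 35.9 to 46.3% against 61.4 to 65.2%, while type I in the regulatory subunits and the catalytic to regulatory ratio overlap.

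The inhibitors also diverged. PKIA (ENSG00000171033, chromosome 8 from 78516340 to 78605267, plus strand) encodes PKI alpha, the form first known from muscle. It had 893, 965 and 1432 normalized counts in Ctrl and 2759.9, 2349.6 and 2069.7 in NE replicates 1, 2 and 3. All NE libraries were above all Ctrl libraries, and Ctrl replicate 3 was the nearest to them. Ctrl averaged 1097 ± 292.3 (SD, n = 3) and NE 2393 ± 347.1 (SD, n = 3). This rise of 1.15 on the log2 scale (SE 0.18, limma adjusted p = 0.00108) was the largest of the 10 genes. It was 1.35 without Ctrl replicate 3 (adjusted p = 5.43e-07 by limma). After the GC correction it was 0.56 (adjusted p = 0.00969 by limma), under the fold criterion but past the test, with exons at 37.2% GC.

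PKIG (ENSG00000168734, chromosome 20 from 44531785 to 44624247, plus strand) encodes PKI gamma, found in many tissues. Ctrl replicates 1, 2 and 3 had 536, 538 and 325 normalized counts, and the NE libraries 295, 293 and 238. Ctrl replicate 3 was close to the NE libraries but above all of them. PKIG fell, with -0.73 on the log2 scale (SE 0.21, limma adjusted p = 0.0168), and without Ctrl replicate 3 it was -0.97 (adjusted p = 2.48e-05 by limma). The call was lost without Ctrl replicate 1 (adjusted p = 0.0584 by limma), without Ctrl replicate 2 (0.0626), without NE replicate 3 (0.0707) and after the GC correction, where the log2 fold change was -0.39 (adjusted p = 0.0988 by limma). PKIG shares 853 bases, or 34.6% of its exons, with ADA on the opposite strand, and ADA averaged 237.7 in Ctrl and 148 in NE. With strand not stated, the PKIG values are uncertain. The other overlaps were with genes of low counts, PRKAR2A-AS1 at means of 23.8 and 18.2, Z99129.3 within PKIB at 0.349 and 5.07 and AC007780.1 within PRKAR1A at 2.00 and 1.90 in Ctrl and NE.

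PKIB (ENSG00000135549, chromosome 6 from 122471917 to 122726373, plus strand) encodes PKI beta. It had 619, 561 and 966 normalized counts in Ctrl and 846, 719.6 and 783 in NE replicates 1, 2 and 3. Ctrl replicate 3 was the highest of all 6 libraries, so that the groups overlapped. NE minus Ctrl was 0.17 on the log2 scale, with a 95% interval from -0.27 to 0.61 (adjusted p = 0.491 by limma). Without Ctrl replicate 3 it was 0.41 (adjusted p = 0.00421 by limma), and after the GC correction -0.22 (adjusted p = 0.324 by limma).

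Thus 1 inhibitor rose, 1 fell and 1 did not pass the test. By FPKM PKIA made up 35.9%, 38.6% and 46.3% of the 3 PKI transcripts in Ctrl and 65.2%, 64.0% and 61.4% in NE replicates 1, 2 and 3. These groups did not overlap, with means of 40.3 ± 5.41% and 63.5 ± 1.98% (SD, n = 3 each). They did not overlap after the GC correction either, at 43.96 to 48.8% in Ctrl and 59.7 to 62.8% in NE. The ratio of PKI to catalytic transcripts was 1.89, 1.96 and 3.14 in Ctrl and 3.64, 3.29 and 3.19 in NE. With the lengths of the canonical transcripts the ratio in Ctrl replicate 3 was 2.11, within the NE range of 1.99 to 2.24, and after the GC correction the ratio was 2.45 to 3.56 in Ctrl and 2.94 to 3.29 in NE. The separation of this ratio was thus lost in both.

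For each of the 7 genes that passed the test, and for no other, the exact permutation test of the difference in means (two-sided) gave p = 0.1, the smallest that 3 against 3 libraries allow. Without Ctrl replicate 3, 6 genes were higher and 3 lower, against 31.8% and 32.6% of all tested genes, with PKIB and PRKACA added. After the GC correction, 2 genes were higher, AKAP12 and PKIA, and 1 lower, PRKAR1B, against 13.6% and 18.9%.

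**Figure D3:**
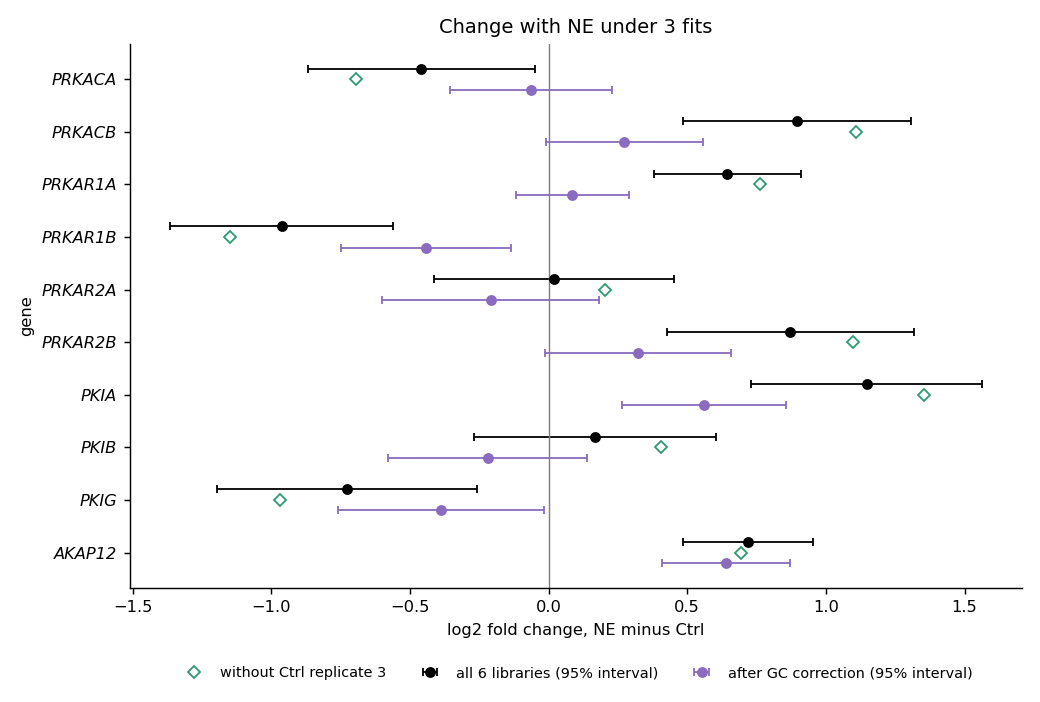
Log2 fold change of each gene, NE minus Ctrl (x axis), with all 6 libraries (black, 95% interval), without Ctrl replicate 3 (green diamonds) and after the GC correction (purple, 95% interval). The values of AKAP12 lie between 0.64 and 0.72, whereas those of PRKAR1A run from 0.09 to 0.76 and those of PRKACB from 0.27 to 1.11.

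Ordered by exon GC content, PRKACB, PKIA, PRKAR1A and PRKAR2B, at 35.8 to 38.4%, had log2 fold changes of 0.64 to 1.15. PKIB and PRKAR2A, at 41.9% and 44.5%, had 0.17 and 0.02. PKIG, PRKACA and PRKAR1B, at 54.7 to 62.1%, had -0.96 to -0.46. These 3 blocks, with AKAP12 set aside, were thus ordered as the median of all tested genes was, while within blocks some pairs went the other way. PKIA was above PRKACB, PRKAR2B above PRKAR1A and PKIG below PRKACA. PKIB was above PRKAR2A and PRKAR1B was the lowest of its block, both in the order of the median. Genes between 36.0% and 39% GC had a median log2 fold change of 0.68, and genes between 60% and 63% GC a median of -0.67. AKAP12 lay above the 75th percentile of its neighbours in GC content, and so did PKIA, at 1.15 against 0.96.

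**Figure D4:**
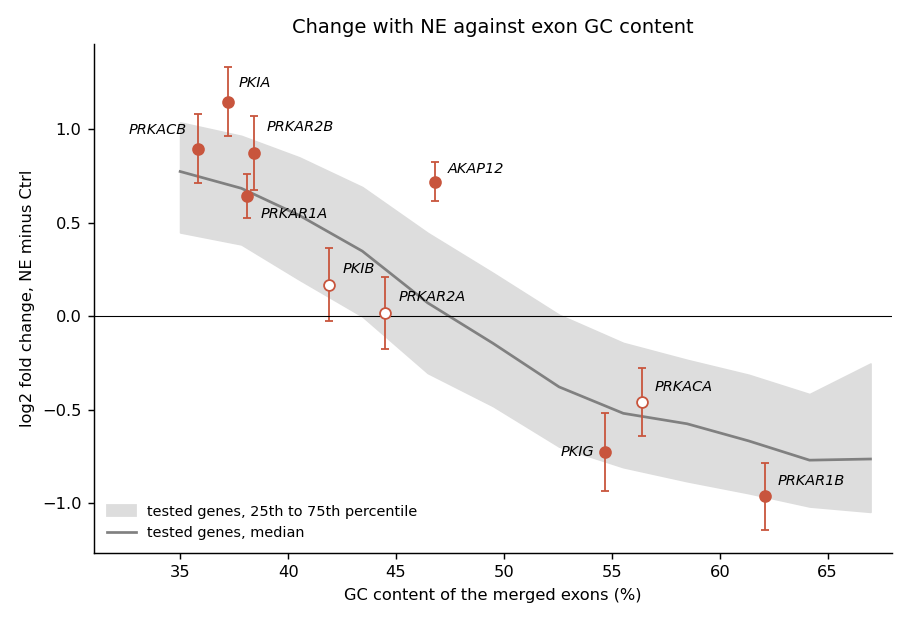
Log2 fold change, NE minus Ctrl (y axis), against the GC content of the merged exons (x axis) for the 10 genes, filled where the adjusted p was under 0.05 and with bars for the standard error; the grey line and band give the median and the 25th to 75th percentile of tested genes in bins of GC content. AKAP12, at 46.8% GC and 0.72, and PKIA, at 37.2% and 1.15, stand above the band, and the other 8 lie within it or at its lower edge.

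The levels of the genes were compared per length in FPKM over the merged exons. In Ctrl the order ran from AKAP12 at 100.6 ± 2.19 (SD, n = 3) over PRKAR1A at 18.3 ± 3.08, PRKAR2A at 17.9 ± 4.52, PKIA at 15.2 ± 4.37, PRKACA at 13.2 ± 3.19, PKIB at 11.6 ± 3.81, PKIG at 10.5 ± 2.58 and PRKAR1B at 6.26 ± 1.35 to PRKACB at 3.30 ± 0.972 and PRKAR2B at 1.29 ± 0.404. From PRKAR1A down to PRKAR1B each gene overlapped the next in its range over the Ctrl libraries, so that their order is not set by these data. In NE-treated cells AKAP12 stayed first at 182 ± 10.7, and PKIA at 36.3 ± 3.71 and PRKAR1A at 31.3 ± 2.33 came next, with overlapping ranges. PRKAR2B was last in both groups, at 2.53 ± 0.166 in NE. With the length of the canonical transcript, PRKAR1A was at 54.3 ± 9.11 in Ctrl and 92.6 ± 6.89 in NE and PRKACA at 35.8 ± 8.68 in Ctrl, so that PRKAR1A came after AKAP12 in both groups and PRKACA followed it in Ctrl. PRKAR1B, at 7.04 ± 0.812, was then last in NE.

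**Figure D5:**
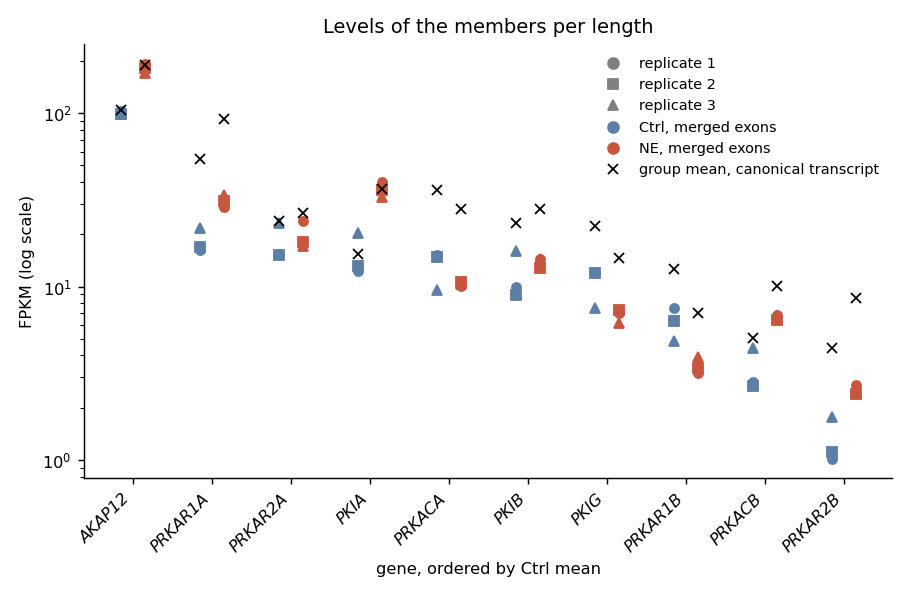
FPKM (y axis, log scale) of the 10 genes in each Ctrl (blue) and NE (red) library over merged exons, ordered by the Ctrl mean, with crosses for the group means over the canonical transcript. AKAP12, near 100.6 in Ctrl, stands above all others with either length, while PRKAR1A moves from 18.3 to 54.3 with the shorter canonical transcript.

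The genes whose profile over the 6 libraries was nearest to that of PKIA, by the root mean square difference of centred log2 values, were AP5M1 at 0.024, SHPRH at 0.040 and RSF1 at 0.042. Their exons hold 35.3%, 38.5% and 38.1% GC, like the 37.2% of PKIA. Nothing follows from this for shared control.

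Other A-kinase anchoring proteins, which tether the regulatory subunits at defined sites in the cell, were taken from a list of 33 symbols, of which 30 were in the table and 27 were tested. Of these, 13 rose and 2 fell at an adjusted p under 0.05, and 6 were upregulated and 0 downregulated with the fold criterion. Over all tested genes 24.6% rose, 25.5% fell, and 7.47% and 6.55% also passed the fold criterion. The median log2 fold change of the list was 0.37, beside 0.01 over all tested genes. AKAP9, the scaffold of Golgi and centrosome, rose by 1.45 on the log2 scale (adjusted p = 5.19e-05 by limma). NBEA rose by 1.42, MAP2, the neuronal microtubule protein that binds type II PKA, by 1.25, AKAP5 by 1.24, AKAP6 by 1.16 and GSKIP by 1.08, with adjusted p from 0.000384 to 0.0112 by limma. RAB32, a mitochondrial anchor, fell by 0.96 and AKAP1, another, by 0.50, both named after their values were seen. AKAP5 and AKAP6 were low, at no more than 76.8 normalized counts in any library. Without Ctrl replicate 3, 14 of the list were higher and 4 lower, against 31.8% and 32.6% of all tested genes. With GC corrected, 10 were higher and 2 lower, against 13.6% and 18.9%. AKAP9 was then at 0.86 (adjusted p = 0.000178 by limma), MAP2 at 0.89, NBEA at 0.84 and GSKIP at 0.70, all past the test. AKAP5 (0.0960) and AKAP6 (0.0942) had an adjusted p above 0.05. The 2 lower genes were then RAB32, at -0.83, and PDE4DIP, at -0.42 and also named after its values were seen, while AKAP1, at -0.18, did not pass (adjusted p = 0.176 by limma).

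Of 7 other PKA genes 4 were in the table and 3 were tested. PJA2, a ubiquitin ligase that marks regulatory subunits for degradation, had 1425, 1471 and 1996 normalized counts in Ctrl and 4413, 3796 and 3582 in NE replicates 1, 2 and 3. Its groups were far apart, with a log2 fold change of 1.28 (adjusted p = 0.000259 by limma) and 0.73 after the GC correction (adjusted p = 0.00075 by limma). AKIP1, which binds the catalytic subunit, fell by 0.94 on the log2 scale (adjusted p = 0.00571 by limma) and stood at -0.83 with GC corrected (adjusted p = 0.00739 by limma), and PRKX, a related kinase, was at 0.26 (adjusted p = 0.211 by limma).

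Around the kinase, 28 of 38 genes for receptors, G proteins, cyclases, phosphodiesterases, EPACs and CREB factors were tested. At an adjusted p under 0.05, 14 rose and 8 fell, against 24.6% and 25.5% of all tested genes, with a median log2 fold change of 0.39. Without Ctrl replicate 3, 15 were higher and 9 lower, and after the GC correction 11 were higher and 2 lower, against 13.6% and 18.9% of all tested genes, so that most of the falls did not pass there. The cAMP-degrading PDE3A, PDE4B and PDE4D rose by 3.40, 3.25 and 3.01, PDE8B by 1.55 and the CREB-family gene CREM by 3.33, whereas RAPGEF3, the cAMP sensor EPAC1, fell by 1.66 on the log2 scale. All 6 genes also passed the test after the GC correction, PDE3A at 2.90, PDE4B at 2.91, PDE4D at 2.60, PDE8B at 1.45, CREM at 2.96 and RAPGEF3 at -1.23. The 10 PKA genes all changed less than these 4 PDE genes and CREM, PKIA at 1.15 being the largest. PDE3A and PDE8B were low in Ctrl, at 4.19, 8.30 and 12.7 and at 11.5, 8.30 and 25.5 normalized counts. The size of their rises is therefore uncertain.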

How the data were processed

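NCI-H1299 cells were profiled by RNA-seq in 3 Ctrl and 3 NE libraries. Per the labels, the authors aligned reads to hg38 with HISAT2 2.0.5 and counted them per gene with featureCounts 1.5.0-p3; the annotation release is not given in the sources used here. FPKM is named in the methods. The values the authors deposited are instead a signal in which each library's counts were scaled by a single size factor. The step of 1 read ranged from 0.914 to 1.05, and 100% of values above 0 were whole reads within a relative tolerance of 0.001. There were 0 columns of other samples.

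limma 3.58.1 (lmFit, eBayes with trend) was run on log2(value + 1) for genes with a mean of at least 10, all 6 libraries in 1 fit. P-values were adjusted over all tested genes by Benjamini-Hochberg, and 0.05 was the threshold, with, where stated, a log2 change of 1 or more in size. The scale understates changes of low genes. edgeR 4.0.16 and DESeq2 1.42.0 used the recovered reads. Gene positions, exon length and GC content came from GENCODE v44 for 25813 of 26025 genes, and for the GC correction each library's trend was fitted as a natural spline (5 degrees of freedom) and subtracted. Promoter windows are from RefSeq, GRCh38.p14. Reads carry no molecular identifiers. The test was tested on simulated counts with the same spread setting for all genes. They held no GC trend and no library that stood apart, so that those features of these data were not covered. The 10 genes, the lists, the rule for named genes (all members, at most 6 list genes past both thresholds, the 3 profiles nearest to a member past both, overlapping genes and markers) and the settings were chosen with earlier results of these data known. Alternatives were other pseudocounts, filters, scalings and tests, a replicate block and each library left out. Libraries with the same replicate number deviated with correlations of -0.163, 0.0799 and -0.151, so that the numbers do not pair them.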

Additional observations from a re-analysis of the deposited data

How the results depend on the processing

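Each gene's log2 fold change was recomputed under 18 alternatives. AKAP12 (0.641 to 1.077), PKIA (0.56 to 1.35) and PRKAR1B (-1.15 to -0.443) kept their direction and an adjusted p under 0.05 by each test in all 18. PRKAR2A, which did not pass in any, was at -0.209 after the GC correction and ran from -0.159 (NE replicate 1 left out) to 0.202 (Ctrl replicate 3 left out), with -0.064 and -0.08 when Ctrl replicate 1 or 2 was dropped, and PKIB was at -0.22 after the GC correction. The replicate block changed no call of these genes, with 0.718 for AKAP12 and 1.15 for PKIA, and 5 members higher and 2 lower. Median-ratio scaling applied about the same factor, 1.01, to every library.

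The GC correction left 526 genes called higher and 376 lower, against 1121 and 983, and 0 members past both thresholds, with 2 higher and 1 lower without the fold criterion. Total-count scaling gave 1653 genes higher and 600 lower, 3 members past both thresholds and a median of all genes of 0.14. Quantile normalization gave 1057 genes higher and 964 lower and 2 such members, with AKAP12 at 1.077. Across the 6 fits without 1 library, genes called higher ran from 816 to 1609 and lower from 777 to 1512, the most without Ctrl replicate 3, members called higher from 1 to 3 and lower from 0 to 1, and members without the fold criterion from 5 to 6 higher and from 1 to 3 lower. For the transcript make-up, the difference of NE minus Ctrl after the GC correction, chosen after seeing the data, was -4.78 percentage points for PRKACA in catalytic, 0.0158 for catalytic over regulatory, 0.233 for PKI over catalytic and 14.7 percentage points for PKIA in PKI. The causes were not tested. Reads limit PRKACB, PRKAR1B, PRKAR2B and PKIG most, with as few as 222 in a library.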
